A study of Mus musculus with 48 samples.

Results

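Neural differentiation genes were followed in mouse embryonic stem cells through 9 genes chosen by name, of 21887 protein-coding genes in all. They are the proneural transcription factors Neurog1, Neurog2 and Neurod1, the Notch effector Hes5, the motor neuron and oligodendrocyte factor Olig2, the progenitor factor Sox1, the progenitor filament nestin (Nes), the neuronal tubulin Tubb3 and the adhesion molecule Ncam1. Binding events and chromatin domains were read within 1 kb of either end of each gene. ChIP-seq recovers DNA bound by a protein or carrying a histone mark, and the series covers 9 targets in 48 samples, in 24 groups of 2 libraries.

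The wildtype line is Ainv15(iCre). The Zbtb11KO line carries a doxycycline-inducible HA-tagged Zbtb11 (iZbtb11-HA), the Zfp131KO line an inducible HA-tagged Zfp131 (iZfp131-HA), and the double knockout an inducible HA-tagged Zbtb11 and V5-tagged Zfp131. NELF, H3K4me3, H3K27ac, H3K27me3, CHD4 and SIN3A were measured in wildtype and both single knockouts, and NELF and H3K4me3 also in the double knockout. SETD1A and serine 5 phosphorylated polymerase II (POL2 5SP) were measured in wildtype alone. All of these cells were kept for 3 days without doxycycline, so the tagged factors were not induced, in medium with LIF and without the 2 kinase inhibitors (2i). HA was measured in each single knockout line after 3 days with 3 ng/uL doxycycline, in medium with LIF and 2i. The labels name 1 line per genotype, so an effect of a knockout and a difference between lines cannot be told apart. Both knockouts were compared with the same wildtype libraries.

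Proneural basic helix-loop-helix (bHLH) factors bind E-box sequences, drive progenitors out of the cycle and into neuronal fates, and induce Notch ligands. Notch signalling acts through RBPJ on Hes genes, whose products repress the proneural genes. In embryonic stem cells such lineage genes are known to be bivalent: their promoters carry H3K4me3, a mark of promoters open to transcription, together with H3K27me3, the Polycomb mark of repression. NELF is the negative elongation factor, which holds RNA polymerase II paused just past the start site. SETD1A is a methyltransferase of H3K4, and SIN3A and CHD4 belong to histone deacetylase complexes.

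In mm10 the genes lie at chr2:79452637-79456636 (Neurod1, minus strand), chr13:56250478-56252180 (Neurog1, minus strand), chr3:127632733-127635636 (Neurog2, plus strand), chr4:154960626-154962372 (Hes5, plus strand), chr16:91225550-91228677 (Olig2, plus strand), chr8:123411553-123422015 (Tubb3, plus strand), chr9:49502129-49799393 (Ncam1), chr8:12395519-12399555 (Sox1, plus strand) and chr3:87971093-87980451 (Nes, plus strand). The annotation used gives gene ends and start sites but no exons.

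RefSeq promoter sequences (GRCm38.p6) were matched for 8 of the 9 genes. Of these, 4 are printed because the results turn on them: Neurod1, which departed from the other genes in the Zfp131KO and double knockout lists; Hes5, with the deepest NELF fall; and Tubb3 and Sox1, with the most NELF in wildtype. Each is the 250 bases before the start site, 5′ to 3′ on the gene's strand. Capitals mark E-boxes (CANNTG), the RBPJ core (TGGGAA or its reverse complement TTCCCA) and GC boxes (GGGCGG or its reverse complement CCGCCC).
Neurod1, chr2:79456637-79456886, minus strand: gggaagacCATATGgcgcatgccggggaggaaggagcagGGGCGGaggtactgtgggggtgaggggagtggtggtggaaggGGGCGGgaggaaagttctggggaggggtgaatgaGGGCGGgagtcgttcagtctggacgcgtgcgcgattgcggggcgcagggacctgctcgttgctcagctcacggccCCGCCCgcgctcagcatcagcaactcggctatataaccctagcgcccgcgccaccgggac
Hes5, chr4:154960673-154960922, plus strand: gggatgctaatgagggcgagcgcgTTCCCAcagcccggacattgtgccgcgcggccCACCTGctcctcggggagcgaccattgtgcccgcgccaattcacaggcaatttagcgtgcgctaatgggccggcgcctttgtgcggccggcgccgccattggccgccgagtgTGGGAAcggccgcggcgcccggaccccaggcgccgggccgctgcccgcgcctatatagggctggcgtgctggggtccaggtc
Tubb3, chr8:123411303-123411552, plus strand: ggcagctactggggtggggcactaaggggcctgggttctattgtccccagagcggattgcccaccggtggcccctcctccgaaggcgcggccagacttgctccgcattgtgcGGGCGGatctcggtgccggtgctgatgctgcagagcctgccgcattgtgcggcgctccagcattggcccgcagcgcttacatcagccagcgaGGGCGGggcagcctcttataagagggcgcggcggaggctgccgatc
Sox1, chr8:12395269-12395518, plus strand: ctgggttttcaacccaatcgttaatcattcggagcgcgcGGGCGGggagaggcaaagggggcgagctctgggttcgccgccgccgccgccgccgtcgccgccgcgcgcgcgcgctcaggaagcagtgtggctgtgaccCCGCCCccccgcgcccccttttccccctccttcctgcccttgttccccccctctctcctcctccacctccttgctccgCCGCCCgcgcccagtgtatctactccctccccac

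E-box letters occurred once in the Neurod1 window, starting 242 bases before the start site, and once in the Hes5 window, 194 bases before it. The other 6 matched genes had none, and 66.2% of the 32851 promoters of the same length had at least 1. Hes5 held the RBPJ core on each strand, starting 226 and 82 bases before the start site, and 2.77% of promoters held 2 or more copies. The other 7 matched genes held none, against 21.6% of promoters with at least 1. GC boxes were found at all matched genes but Hes5: 4 at Neurod1, 3 each at Neurog1 and Sox1, and 2 each at Neurog2, Olig2, Tubb3 and Nes, where 32.7% of promoters had at least 1. The windows held 8 (Neurog2) to 32 (Hes5) CpG dinucleotides, against a median of 6 over all promoters. These are matches of letters only. Within 1 kb of the gene ends, the HA-tagged factors had listed events at Neurog1, Neurog2, Hes5 and Nes (ZBTB11) and at Sox1 (ZFP131), which are described further below.

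In wildtype cells the 9 genes were marked but little acetylated. H3K4me3 domains were listed at 9 of 9 genes (64.2% of protein-coding genes had one) and H3K27me3 domains at 8 of 9 (24.6%), with Ncam1 the exception. Both marks together were present at 8 of the 9 genes and at 22.5% of all genes. H3K27ac, a mark of active promoters and enhancers, was listed at Sox1 and Nes alone, by 28 and 36 pooled reads against a median of 219.0 reads over genes with a domain, and 46.2% of all genes had one. By comparison 12 of 14 embryonic stem cell markers, such as Nanog, carried H3K27ac in wildtype, as did 13 of 21 Notch pathway and bHLH repressor genes, 5 of 26 other neural progenitor factors, 0 of 13 other neural bHLH activators, 4 of 22 other neuronal markers, 3 of 9 primitive endoderm markers, 2 of 9 glial markers and 0 of 8 fibroblast markers.

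The repressive mark differed widely between the genes. Olig2 carried 6482 pooled H3K27me3 reads over 11671 bp, where the median gene with a domain had 401.0. Neurog1 had 4065 reads, Hes5 2865, Neurog2 2610, Nes 2214 and Neurod1 992. Tubb3 had 157 and Sox1 19, from a single 70 bp domain, so Sox1 was bivalent only by a trace of the mark. H3K4me3 had a different order: Ncam1 came first with 4480 reads and Sox1 second with 3712, then Nes with 1815, Neurog2 with 1444, Hes5 with 1194, Tubb3 with 750, Neurog1 with 608, Olig2 with 596 and Neurod1 with 183. Domain reads were pooled over 2 libraries and are not scaled for depth, which those lists do not give, so neighbours in these orders have no replicate check. Reads were not divided by length, and they are compared between genes only as amounts recovered within the window.

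NELF events were listed at all 9 genes in wildtype, and at 59.3% of protein-coding genes. The reads assigned to them ranged from 79.1 at Neurog2, 81.6 at Neurod1 and 83.6 at Olig2, close to the weakest event of the list (47.0 reads), to 1055.4 at Sox1 and 1154.7 at Tubb3, above 77.6% and 81.3% of genes with an event. Between them were Ncam1 (304.8), Hes5 (397.2), Neurog1 (715.8) and Nes (795.3). The strongest event lay near the start site at the 8 genes with a known one, from 95 bp before it at Olig2 to 373 bp past it at Neurog2. Polymerase II with serine 5 phosphate was listed at 6 of 9 genes, with 1805 reads at Ncam1, 1267 at Tubb3, 636 at Sox1, 459 at Nes, 142 at Neurog1 and 118 at Hes5. Of all genes 57.4% had a domain, so 6 of 9 is near the background. It was not listed at Neurod1, Neurog2 or Olig2, the same genes that had the weakest NELF events. SETD1A events were listed at 5 of 9 genes, Neurog1 (288.6 reads), Nes (284.0), Sox1 (166.3), Hes5 (160.7) and Tubb3 (139.6), where 43.7% of all genes had one.

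NELF fell at 7 of the 9 genes in Zbtb11KO, where 55.3% of the 13321 genes with a NELF region were called lower and 0.0901% higher in the authors' deposited table. No member rose there by DESeq2, at an adjusted or at an unadjusted p under 0.05. In the authors' deposited table the log2 fold change was -2.58 at Hes5 (SE 0.45, adjusted p 3.21e-06), the largest fall of the 9, and -2.18 at Tubb3 (SE 0.31, adjusted p 4.87e-09). The Hes5 value is that of its region of highest mean signal. Its longest region, of 734 bp, fell less, at -1.17 (SE 0.51, adjusted p 0.0472) by DESeq2 in the authors' deposited table. The progenitor genes Sox1 and Nes fell by 2.07 (SE 0.37) and by 1.81 (SE 0.35), and Neurog1 by 1.84 (SE 0.35), in the authors' deposited table. Smaller falls passed the threshold at Olig2, which fell by 1.48 (SE 0.64, adjusted p 0.0436), and at Ncam1, which fell by 1.22 (SE 0.42, adjusted p 0.0144), in the same authors' deposited table. The Olig2 call did not hold with a window of 5 kb, at an adjusted p under 0.01 or with regions of low mean signal left out, and the Ncam1 call did not hold at an adjusted p under 0.01. The remaining pair of proneural genes did not pass: in the authors' deposited table the log2 fold change was -1.27 (SE 0.65, adjusted p 0.0859) at Neurog2 and -0.91 (SE 0.60, adjusted p 0.175) at Neurod1.

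The decrease at the neural genes was part of one over most genes. The median log2 fold change was -1.81 over the 9 genes and -0.97 over all genes with a region in the authors' deposited table. Hes5 stood lower than all but 0.548% of genes, Tubb3 than all but 1.92% and Sox1 than all but 2.93%, and Neurod1 was near the middle, with 54.8% of genes below it. After subtraction of the median log2 fold change over regions (-1.04 in the authors' deposited table), Tubb3 alone stayed lower, as did 0.285% of genes. The falls at the 6 other genes were thus called against wildtype but not against the shift shared by all regions.

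**Figure D1:**
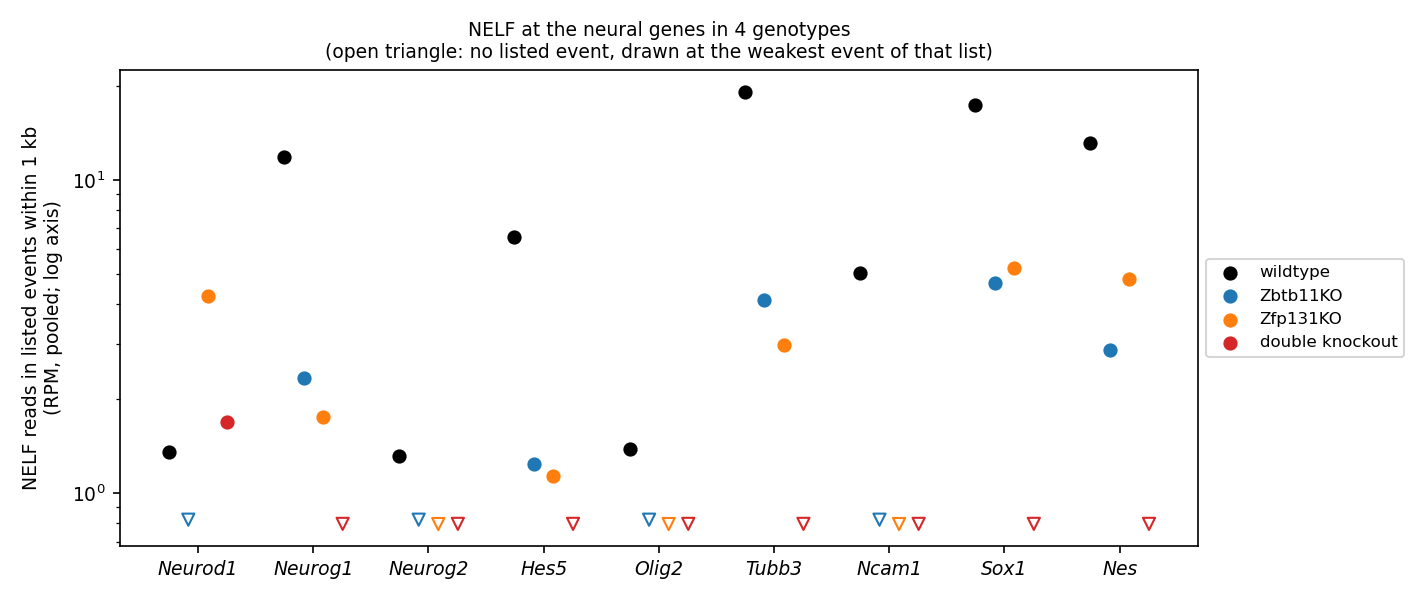
NELF reads in events within 1 kb of each gene, as RPM on a log axis, in wildtype and the 3 knockouts (pooled libraries, no error). Open triangles mark genes without a listed event, drawn at the weakest event of that list: 8 of 9 genes in the double knockout have one, and Neurod1 is above wildtype in Zfp131KO (4.27 against 1.35).

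At all genes but Neurod1, the event lists had fewer NELF reads or no event in each knockout, including genotypes without a usable table. Reads are given as RPM, scaled by the total reads of each header (60.5 M for wildtype, 51.1 M for Zbtb11KO, 61.5 M for Zfp131KO and 71.6 M for the double knockout), pooled over libraries and without a test. Tubb3 had 19.1 RPM in wildtype, 4.13 in Zbtb11KO, 2.97 in Zfp131KO and no listed event in the double knockout. Sox1 had 17.4, 4.69 and 5.23, Nes 13.1, 2.86 and 4.82, Neurog1 11.8, 2.33 and 1.75, and Hes5 6.56, 1.24 and 1.13 in wildtype, Zbtb11KO and Zfp131KO, and none of these 4 genes had an event in the double knockout. So these 5 genes had an event within 1 kb in each single knockout, at 0.148 (Neurog1, Zfp131KO) to 0.367 (Nes, Zfp131KO) of the wildtype level, and had none in the double knockout. The sole Hes5 event in Zbtb11KO lay 705 bp past the start site, whereas the strongest wildtype event lay 122 bp past it. Ncam1, at 5.04 in wildtype, Olig2, at 1.38, and Neurog2, at 1.31, had no event in any knockout list. The weakest listed events were at 0.776 to 0.822 RPM in the 4 lists, so Olig2 and Neurog2 were near the limit of listing already in wildtype.

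Neurod1 lay above wildtype in Zfp131KO and the double knockout. Its wildtype event had 1.35 RPM, none was listed in Zbtb11KO, and the event had 4.27 in Zfp131KO, 3.16 times wildtype, and 1.69 in the double knockout, 1.25 times wildtype. An intragenic event moved with it: 2324 bp past the start site in wildtype with 78.7 reads, 2114 bp past it in Zfp131KO with 254.8 reads and 2078 bp past it in the double knockout with 125.5 reads. Neurod1 was the sole member above wildtype in any knockout list and the sole member still listed in the double knockout within 1 kb. For background, 12909 genes had at least 50 NELF reads in wildtype. Of these an event was still listed for 72.5% in Zbtb11KO (5 of 9 members), 74.2% in Zfp131KO (6 of 9) and 49.2% with both genes deleted (1 of 9). Among the 4104 of these genes that carried both H3K4me3 and H3K27me3 in wildtype, as 8 of the 9 members did, the shares were lower, at 55.9%, 58.2% and 28.4%. Levels above wildtype were found for 1.36%, 3.75% and 0.225% of all 12909 genes, against 0, 1 and 1 of the members. With a window of 5 kb 2 members were listed in the double knockout and 0 were above wildtype.

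The NELF libraries differed in their share of reads in events. Such reads in events made up 23.1% of the wildtype reads, for which the file header names 1 signal replicate, and 9.80%, 11.4% and 5.10% in Zbtb11KO, Zfp131KO and the double knockout. In the double knockout the 2 libraries had 2.70% and 8.00% of their reads in events. Scaled by reads in events instead of total reads, NELF was at 0.300 to 0.744 of wildtype in Zfp131KO and at 0.445 to 0.633 in Zbtb11KO at Neurog1, Hes5, Tubb3, Sox1 and Nes, and at 6.41 and 5.67 times wildtype at Neurod1 in Zfp131KO and the double knockout. Lower enrichment of a library and less NELF on DNA cannot be told apart from this share. In cell populations such as these, a lower signal in every cell and a loss in some of the cells cannot be told apart.

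**Figure D2:**
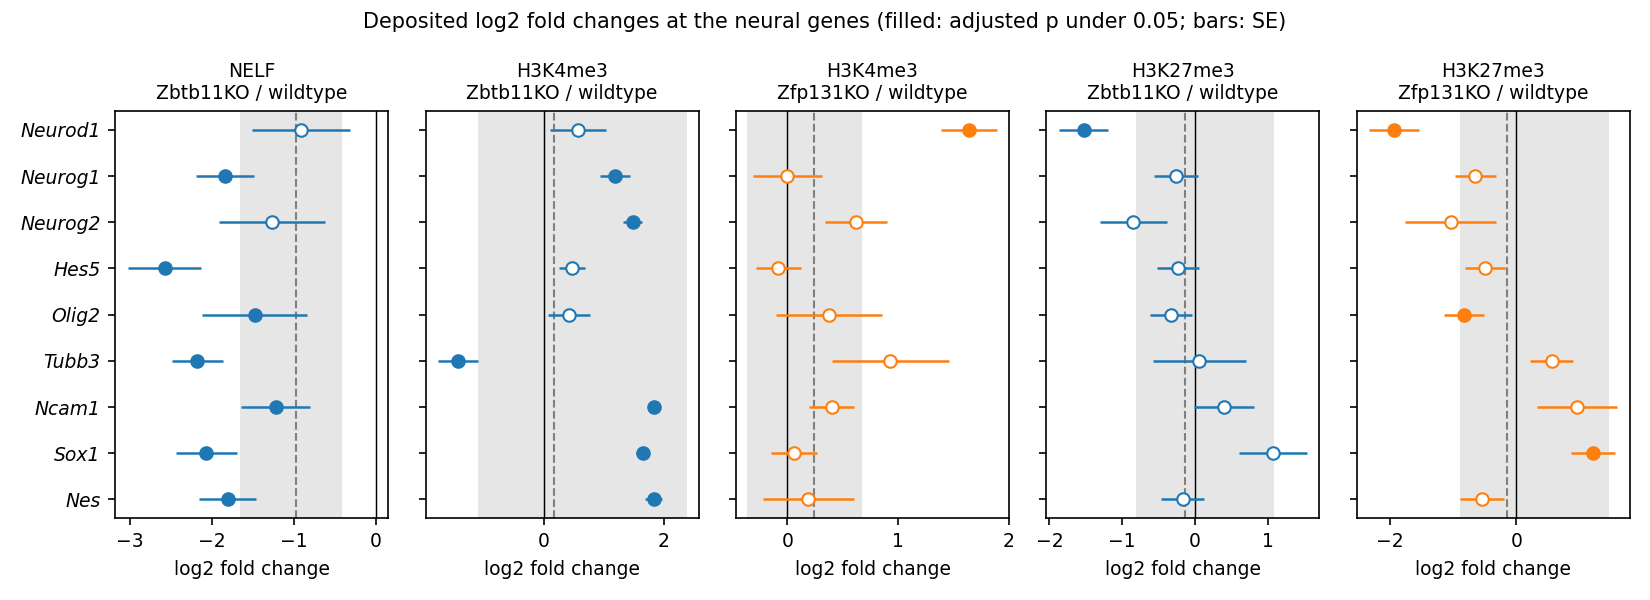
Log2 fold changes against wildtype with SE from the authors' deposited tables, 1 panel per comparison; filled points passed an adjusted p under 0.05, the dashed line is the median of all genes and the grey band runs from their 10th to their 90th percentile. NELF points lie below 0 for all 9 genes, with 7 filled. Neurod1 leaves the band in both right-hand H3K27me3 panels and in the H3K4me3 panel of Zfp131KO, with filled points. Neurog2 also leaves it in both H3K27me3 panels, and Tubb3 in the H3K4me3 panel of Zfp131KO, with open points.

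H3K4me3 was called higher at 5 of the 9 genes in Zbtb11KO in the authors' deposited table, where 42.4% of the 14238 genes with a region were called higher and 24.5% lower. In the authors' deposited table the log2 fold change was 1.83 at Nes (SE 0.14) and Ncam1 (SE 0.09), 1.65 at Sox1 (SE 0.11), 1.48 at Neurog2 (SE 0.16) and 1.18 at Neurog1 (SE 0.25). Tubb3 fell by 1.43 (SE 0.33, adjusted p 1.07e-04) by the authors' deposited table. There Neurod1 (0.57, SE 0.46), Hes5 (0.47, SE 0.21) and Olig2 (0.42, SE 0.35) did not pass the threshold of the authors' deposited table, with adjusted p of 0.357, 0.0654 and 0.370.

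The size of these fold changes was not borne out by the listed reads. Over joined stretches (domains of all 4 genotypes merged where they overlap), Ncam1 had 4480 wildtype reads and 3845 in Zbtb11KO, Sox1 3712 and 3329, Nes 1815 and 1905, Neurog2 1444 and 1719, and Neurog1 608 and 587. The log2 fold change of the authors' deposited table exceeded the log2 ratio of these reads by 0.44 to 2.05 at 8 genes and was 0.09 below it at Tubb3. That table was also wide, with an SD of 1.44 over genes against 0.56 for Zfp131KO in the authors' deposited tables. Unscaled, 3 of the 9 genes had more H3K4me3 reads in Zbtb11KO than in wildtype (Neurod1, Neurog2 and Nes), as did 21.9% of the 13734 genes with at least 50 wildtype reads. The median gene had 0.744 of its wildtype reads, and relative to it Neurog2 stood at 1.60, Neurod1 at 1.47, Nes at 1.41, Neurog1 at 1.30, Olig2 at 1.23, Sox1 at 1.21, Ncam1 at 1.15 and Hes5 at 1.00. Tubb3 stood at 0.532, lower than all but 5.85% of genes, and it was lower than wildtype in both the authors' deposited table and the lists.

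In Zfp131KO, Neurod1 was the sole member called for H3K4me3, with a log2 fold change of 1.64 (SE 0.25, adjusted p 4.69e-09) by the authors' deposited table. There 33.5% of 14277 genes were called higher and 4.18% lower, and 99.1% of genes changed less or fell, in the authors' deposited table. At the region of highest mean signal no member was called lower by DESeq2, at an adjusted or an unadjusted p under 0.05, and 3 were higher at an unadjusted p under 0.05. Of the 4 regions near Neurod1, 1 was called higher and 1 lower, with log2 fold changes from -2.13 to 1.64 in the authors' deposited table. Tubb3 had the next largest value, 0.93 (SE 0.53, adjusted p 0.185), followed by Neurog2, 0.62 (SE 0.28, adjusted p 0.0945) by the authors' deposited table. The 6 others lay between -0.08 (Hes5) and 0.40 (Ncam1) in the authors' deposited table.

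The lists show how H3K4me3 spread at Neurod1. In wildtype a 408 bp domain of 158 reads covered the start site and a separate 974 bp domain of 564 reads began 1811 bp past it. In Zbtb11KO the start-site domain was 734 bp long with 221 reads, and a separate one of 1319 bp and 507 reads began 1464 bp past the start site. Smaller domains of 64 and 16 reads lay between them. In Zfp131KO a single domain of 3041 bp and 2195 reads ran from 206 bp before the start site to 2834 bp past it, and in the double knockout one of 3400 bp held 5349 reads. Over the joined stretches wildtype Neurod1 had 776 reads, against 847 and 2229 in Zbtb11KO and Zfp131KO, and 5447 in the double knockout. Relative to the median gene this was 1.47, 3.09 and 4.27 times wildtype, and in the last 2 genotypes more than for 99.6% of genes.

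The other 8 genes kept listed H3K4me3 domains in the double knockout without standing far from the median gene. All 9 genes had more unscaled reads than in wildtype, as did 89.6% of genes, and the median gene had 1.64 times its wildtype reads. Scaled by all reads in domains, 3 of the 9 genes were above wildtype. Relative to that median the 8 genes lay between 0.781 (Sox1) and 1.22 (Neurog2). In Zfp131KO, 5 of the 9 genes had more reads than in wildtype (Neurod1, Neurog2, Olig2, Tubb3 and Ncam1), where 36.4% of genes did. Wildtype Tubb3 had 750 reads, against 297 and 1379 in Zbtb11KO and Zfp131KO, and 1157 in the double knockout, so its single knockouts lay on opposite sides of wildtype. The difference between the knockouts was not tested. At Neurog1, Hes5, Tubb3, Sox1 and Nes, H3K4me3 domains were thus still listed in the double knockout although no NELF event was. Both were common over all genes with at least 50 wildtype reads of the target. A NELF event was still listed for 49.2% of them in the double knockout, and 0.597% had no H3K4me3 reads there.

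**Figure D3:**
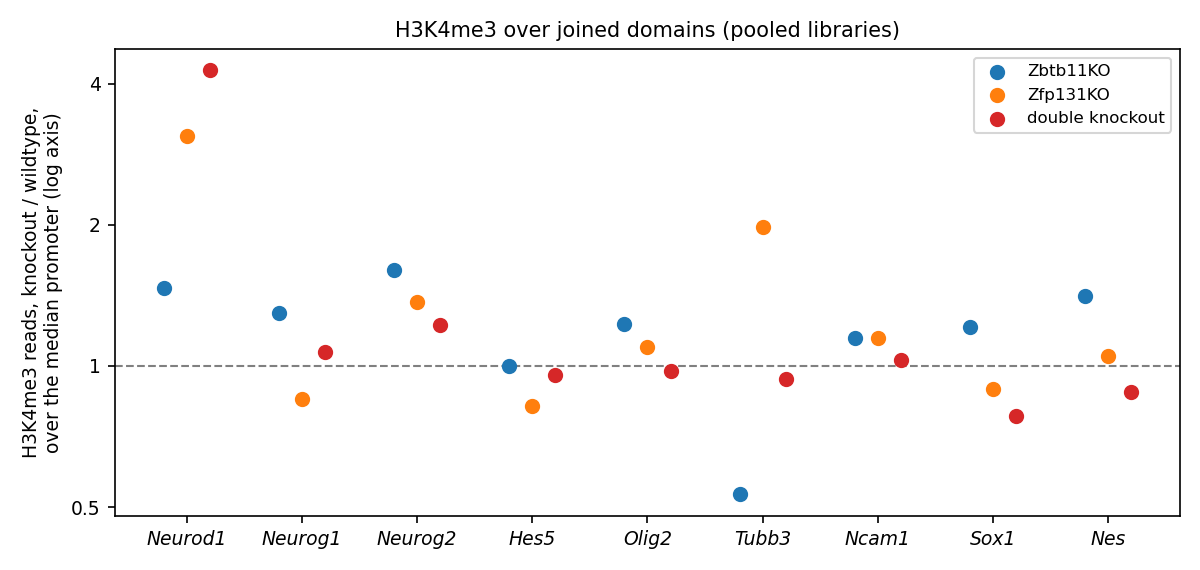
H3K4me3 reads over joined domains, knockout over wildtype and divided by the median gene's ratio (log axis), for each gene in the 3 knockouts (pooled libraries, no error). Neurod1 rises to 3.09 in Zfp131KO and 4.27 in the double knockout, and Tubb3 lies at 0.532 in Zbtb11KO and 1.98 in Zfp131KO.

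H3K27me3 fell at Neurod1 in both single knockouts. The log2 fold change of its highest region (chr2:79454386-79455666) was -1.53 in Zbtb11KO (SE 0.34, adjusted p 3.20e-04) and -1.94 in Zfp131KO (SE 0.39, adjusted p 3.22e-05) by the authors' deposited tables, and all 3 regions near the gene were called lower in each. Wildtype cells had 3 domains with 449, 279 and 264 reads within 1 kb of the gene ends. Zbtb11KO had 2 domains of 17 reads each there and Zfp131KO had none. Within 5 kb the table had 7 regions around the gene, all with negative log2 fold changes. The call did not hold with that window, where the strongest region was a fragment of 93 bp (-1.35, adjusted p 0.0820 in Zbtb11KO and -1.06, adjusted p 0.0984 in Zfp131KO, in the authors' deposited tables), and the gene's own region could not be tested once the lowest 25% of regions by mean signal were left out. Some of the mark was still listed: the joined stretches held 71 reads in Zbtb11KO against 992 in wildtype, and in Zfp131KO a domain of 642 bp and 147 reads lay upstream of the start site, beyond 1 kb of the gene. The authors' deposited tables called 3.51% of 6359 genes lower and 6.46% higher in Zbtb11KO, and 6.59% of 6570 genes lower and 9.95% higher in Zfp131KO.

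Other members with broad H3K27me3 changed less. In Zfp131KO, the authors' deposited table had Olig2 lower, at -0.83 (SE 0.31, adjusted p 0.0480), a call that did not hold at an adjusted p under 0.01 or with regions of low mean signal left out. The longest Neurog2 region (4790 bp) had a log2 fold change of -0.90 (SE 0.32, adjusted p 0.0335), whereas its region of highest mean signal, a fragment of 38 bp, had -1.04 (SE 0.72, adjusted p 0.316), both in the authors' deposited table. Neurog1 (-0.65, adjusted p 0.151) and Hes5 (-0.50, adjusted p 0.268) did not pass in the authors' deposited table. In Zbtb11KO the log2 fold changes were -0.26 at Neurog1, -0.23 at Hes5, -0.33 at Olig2 and -0.17 at Nes in the authors' deposited table, with none past the threshold.

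Sox1 went against Neurod1. In Zbtb11KO, 5 of its 7 regions were called higher in the authors' deposited table, with log2 fold changes of 0.54 to 2.94 over the 7. Its longest region (1720 bp, chr8:12396481-12398200) had a log2 fold change of 1.58 (SE 0.36, adjusted p 4.79e-04), but its region of highest mean signal, a fragment of 42 bp, had 1.07 (SE 0.47, adjusted p 0.106), both in the authors' deposited table. The joined stretches held 73 reads over 280 bp in wildtype, 816 over 2723 bp in Zbtb11KO and 223 over 852 bp in Zfp131KO, while the median gene had 0.829 and 0.556 of its wildtype reads. In Zfp131KO a fragment of 43 bp was called higher in the authors' deposited table (1.22, SE 0.35, adjusted p 0.00641) and the longest region, 70 bp, had -0.31 (adjusted p 0.698). Sox1 H3K4me3 reads over the joined stretch were 3712, 3329 and 3078 in the same genotypes. Tubb3, Ncam1 and Nes had no call for H3K27me3 at their highest region in either knockout of the authors' deposited tables, and Ncam1, without a domain in wildtype within 1 kb, had 116 reads over 465 bp in Zbtb11KO.

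**Figure D4:**
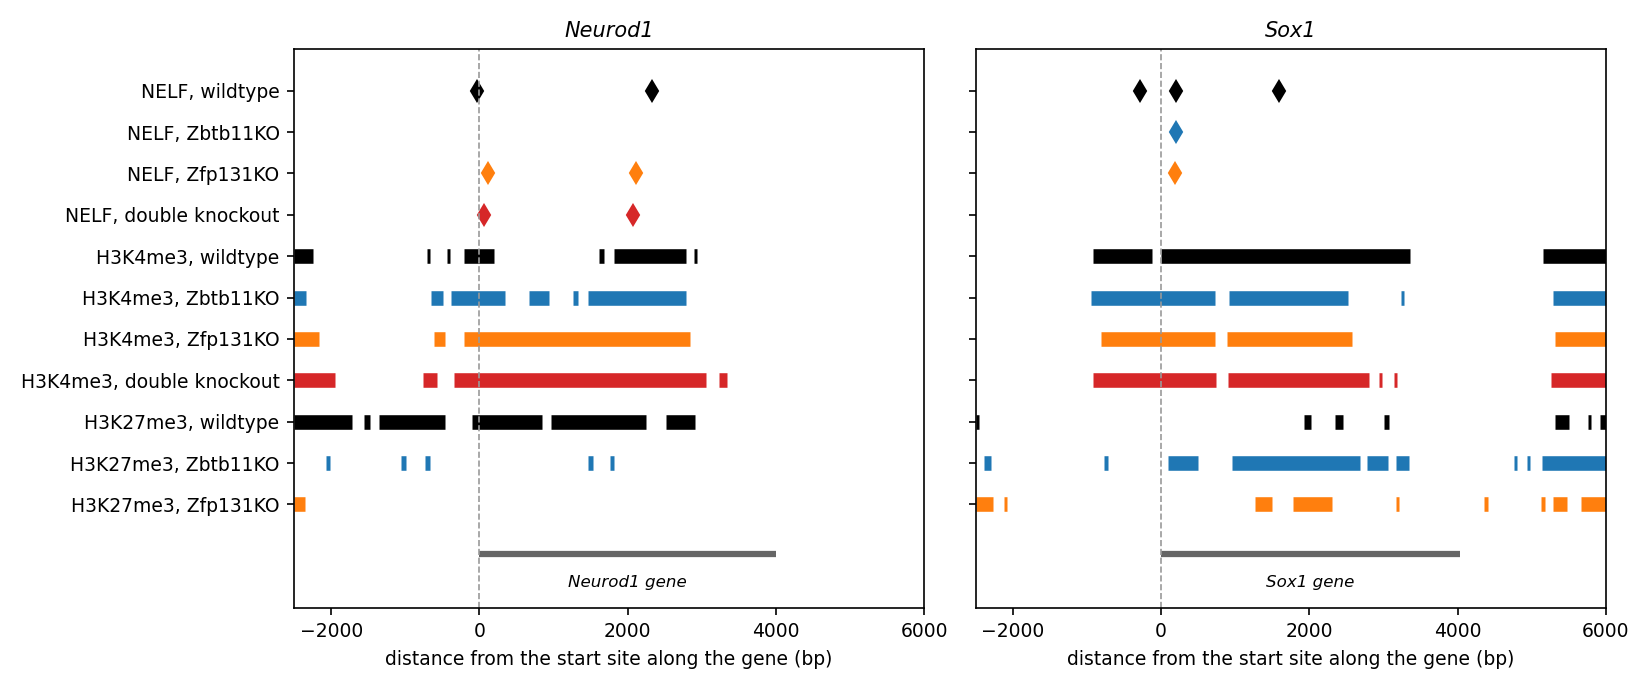
Listed NELF events (diamonds) and domains of H3K4me3 and H3K27me3 (bars) by genotype, against the distance from the start site along the gene, for Neurod1 and Sox1; heights carry no value. At Neurod1 the H3K4me3 bars join into 1 domain of 3041 bp in Zfp131KO, where the sole H3K27me3 bar left is one of 642 bp upstream, and at Sox1 H3K27me3 bars widen in Zbtb11KO.

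H3K27ac was measurable at Sox1 and Nes alone. Sox1 had 28 reads in wildtype, no listed domain in Zbtb11KO and 83 reads in Zfp131KO. Its log2 fold change was -1.49 in Zbtb11KO (SE 0.54, adjusted p 0.0255) and 0.48 in Zfp131KO (SE 0.38, adjusted p 0.347) by the authors' deposited tables. The Sox1 call in Zbtb11KO did not hold at an adjusted p under 0.01, and its region was among those of low mean signal that an alternative left out. Nes had 36 reads in wildtype, no listed domain in Zbtb11KO and 21 reads in Zfp131KO, with log2 fold changes of -0.34 (adjusted p 0.619) and -0.29 (adjusted p 0.672) by the authors' deposited tables. Of all genes with a region 9.94% were called lower and 3.70% higher in Zbtb11KO, and 11.1% lower and 4.56% higher in Zfp131KO, in the authors' deposited tables.

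SIN3A was listed at all 9 genes in wildtype, where 60.5% of all genes had an event, from 149.4 reads at Neurod1 to 652.8 at Nes. In Zbtb11KO the authors' deposited table had it lower at Neurog1 (log2 fold change -0.99, SE 0.28, adjusted p 0.0114) and Sox1 (-0.81, SE 0.25, adjusted p 0.0266), with 2.33% of 13766 genes lower and 5.60% higher. In Zfp131KO the authors' deposited table had it lower at Tubb3 (-0.66, SE 0.22, adjusted p 0.0432), with 1.57% of 12866 genes lower and 5.62% higher. None of these 3 calls held at an adjusted p under 0.01. No member was called higher by DESeq2 in either table, and at an unadjusted p under 0.05 the counts were 0 in Zbtb11KO and 1 in Zfp131KO, namely Neurod1 (0.61, SE 0.28, adjusted p 0.190) by the authors' deposited table. The median over the 9 genes was -0.28 in Zbtb11KO and -0.25 in Zfp131KO, against 0.09 and 0.15 over all genes, in the authors' deposited tables. CHD4 was listed at Neurog1 alone, with 48.8 reads in wildtype, where 11.3% of all genes had an event. Its log2 fold changes there were 0.87 (SE 0.47, adjusted p 0.237) in Zbtb11KO and 0.67 (SE 0.38, adjusted p 0.225) in Zfp131KO, where the authors' deposited tables called 0.636% of genes lower and 2.10% higher, and 6.09% lower and 1.10% higher.

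HA-tagged ZBTB11 had an event within 1 kb of 4 of the 9 genes: Nes (127.6 reads), Neurog1 (96.2 over 2 events), Hes5 (52.5) and Neurog2 (50.0). Of all protein-coding genes 35.9% had one. The strongest event lay past the start site at each, by 218 bp at Neurog2, 284 bp at Neurog1, 338 bp at Nes and 389 bp at Hes5. HA-tagged ZFP131 had 1 event, at Sox1 (93.0 reads, 113 bp past the start site), where 10.2% of genes had one. Within 5 kb the counts were 8 of 9 and 3 of 9, against 46.3% and 13.6% of genes. Neurod1 had no listed ZFP131 event within 5 kb and had one of ZBTB11 there. The HA libraries came from induced cells in medium with 2i and the other targets from uninduced cells without it, so the occupancy of the factors and the changes were measured in different states.

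Related gene lists are given for comparison, with the genes called per list. For NELF in Zbtb11KO, where 55.3% of all genes were lower, the authors' deposited table called lower 3 of 8 other neural bHLH activators with a region (Olig3 at -1.67), 13 of 21 Notch pathway and bHLH repressor genes (the Notch ligands Dll1 at -1.96 and Jag2 at -2.18), 13 of 22 progenitor factors (Sox2 at -1.93, Sox21 at -1.61), 8 of 18 other neuronal markers (the RNA-binding protein Elavl3 at -2.38, the filament protein Ina at -1.76) and 2 of 6 glial markers. Sox2 is counted in the progenitor list and also among the embryonic stem cell markers. The embryonic stem cell markers had 12 of 13 lower with a median of -1.66, and the primitive endoderm markers 0 of 8 lower and 2 higher, Gata4 at 1.94 and Sox7 at 0.90, in the authors' deposited table. At an unadjusted p under 0.05 DESeq2 gave 0 primitive endoderm markers lower and 2 higher. The medians of the neural lists lay between -1.05 and -1.32, with -0.97 over all genes, in the authors' deposited table. The 9 members had a lower median than each of these lists. Members and lists were chosen with earlier results of these data known, so this order is a description only.

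For H3K4me3 in Zbtb11KO most progenitor factors and few neuronal markers were called higher, with no test between lists. These calls rest on the authors' deposited table, whose fold changes were not borne out in size by the listed reads at most members. The excess was 2.05 at Ncam1, 0.44 at Neurod1 and -0.09 at Tubb3. Whether the difference between the lists follows from this was not tested. The authors' deposited table called 16 of 24 progenitor factors higher and 4 lower (Sox21 at 2.73 and Vim at -1.05), and 1 of 19 other neuronal markers higher and 7 lower (Elavl3 at 2.13, Tubb2b at -1.07). Of the Notch pathway genes 14 of 21 were higher and 3 lower, with Hes1 at 2.69 and Id1 at -1.31, and of the other bHLH activators 4 of 10 were higher and 1 lower, in the authors' deposited table. Over all genes the authors' deposited table had 42.4% higher and 24.5% lower. Among the members the progenitor genes Sox1 and Nes were called higher, the neuronal gene Ncam1 was too, and the neuronal gene Tubb3 was called lower, in the authors' deposited table. The primitive endoderm list had 8 genes with a region, of which 4 were higher and 0 lower, with Col4a1 at 2.65 and Gata6 at 2.27 in the authors' deposited table. At an unadjusted p under 0.05 DESeq2 gave 5 of them higher and 0 lower. In Zfp131KO, where 33.5% of genes were called higher, such calls were 8 of 25 progenitor factors, 10 of 21 Notch pathway genes (Dll1 at 1.07), 3 of 11 bHLH activators and 2 of 20 neuronal markers (Nefl at 0.66), in the authors' deposited table. The primitive endoderm markers had 5 of 8 higher there, with Gata4 at 3.07 and Sox17 at 1.44, and a median of 1.41 against 0.24 over all genes in the authors' deposited table. For H3K27me3 in Zfp131KO, where 6.59% of genes were lower, 8 of 21 progenitor factors were lower (Zic1 at -1.86, Sox21 at -1.48) and 4 of 17 Notch pathway genes (Id3 at -1.14), while 0 of 11 bHLH activators were lower at an adjusted p and 3 at an unadjusted p under 0.05, by DESeq2 in the authors' deposited table.

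A pattern over all 7 log2 fold changes of NELF, H3K4me3, H3K27ac and H3K27me3 could be formed only for Sox1 and Nes, among 2097 genes with every region. With each comparison divided by its SD, the genes nearest to their joint median were Syt7 (distance 0.67), Iqgap2 (0.87), Kcnj12 (0.98), Ntf5 (1.00) and Gas1 (1.02). Sox1 and Nes themselves were each at 1.51, and the median gene at 3.02. A pair always lies equally far from its midpoint, and the named genes were picked as nearest to it. Their distances are therefore no measure of how alike the pair are.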

How the data were processed

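The series holds ChIP-seq of 9 targets in 48 samples of mouse embryonic stem cells (24 groups of 2). The submitters' processing notes name Bowtie 1.0.1, DESeq2 1.28.1 and the mm10 build. For NELF, CHD4, SIN3A, SETD1A and HA the deposited MultiGPS lists hold, per the file headers, pooled reads per binding event (signal), a log2 fold over control and a log2 p-value, treated as a score. For the histone marks and polymerase II the deposited DomainFinder lists give for each domain its read count and p-value, called on pooled libraries at a p under 0.01, per the file headers. Per region, the deposited DESeq2 tables of the authors give the mean signal, the log2 fold change (positive is higher in the knockout) with its standard error, the Wald score, the p-value and the adjusted p. How they were scaled is not given in the sources used here.

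The files hold no values per library, so no test was run here and the deposited adjusted p was used, at 0.05. Each gene took its region with the highest mean signal within 1 kb of either gene end. Genes and promoter sequences came from RefSeq tables of GRCm38.p6 (mm10), with 21887 protein-coding genes on the chromosomes used. Domains of the genotypes were joined where they overlapped and reads were summed per joined stretch. The deposited NELF table for Zfp131KO held the same values as that for Zbtb11KO, and the SIN3A event list of Zfp131KO the same as that of CHD4, so neither was used. Alternatives were other windows, thresholds, regions, centring and scaling. The overlap search and the adjustment were tested on simulated data. The number of columns of other samples was 0. Tools were Python 3.11.15 and pandas 2.3.3.

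The genes and the lists beside them were chosen with earlier results of these data known. The text names every member, and from the other lists only genes among the 2 smallest adjusted p in each direction per table. Deposited p-values measure the spread between 2 libraries per group, which may be technical.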

Additional observations from a re-analysis of the deposited data

How the results depend on the processing

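No paired analysis was possible because the files hold no values per library, and for the same reason no library could be left out; the table of NELF in Zfp131KO was not used. Of 183 alternative values over 33 counts of members, 150 stayed within 1.5 times the main count and 33 did not. Counts of 0 that stayed 0 are among the 150, also where few members had a region. The 150 are therefore no measure of how stable the calls were. Centring on the median of all regions took NELF in Zbtb11KO from 7 lower to 1. With a window of 5 kb, H3K4me3 in Zfp131KO had 2 higher, H3K27ac in Zfp131KO 1 lower and 1 higher, H3K27me3 in Zbtb11KO 0 lower and 1 higher and in Zfp131KO 1 lower and 0 higher, CHD4 2 higher in Zbtb11KO and 1 lower in Zfp131KO, NELF in the double knockout 2 genes listed and 0 above wildtype, and the HA factors 8 (ZBTB11) and 3 (ZFP131) genes with an event. With 500 bp, H3K27me3 higher calls were 1 in Zbtb11KO and 0 in Zfp131KO; with the smallest adjusted p they were 1 and 2; with the longest region, chosen after seeing the data, 1 and 0, and SIN3A lower calls in Zbtb11KO were 1. An adjusted p under 0.01 left 0 lower calls for H3K27ac in Zbtb11KO, 1 for H3K27me3 in Zfp131KO and 0 for SIN3A in either knockout. Leaving out the lowest 25% of regions by mean signal left 0 lower calls for H3K27ac in Zbtb11KO (the Sox1 region was left out) and 0 for H3K27me3 in either knockout: the Neurod1 region was left out in both, and Olig2, kept in Zfp131KO, no longer passed after p-values were adjusted again. NELF events with a log2 fold of at least 2 were listed for 3 genes in Zbtb11KO. Genes with more H3K4me3 reads than wildtype numbered 7 in Zbtb11KO and 3 in the double knockout when scaled by all reads in domains, and 8 and 4 relative to the median gene, a scaling chosen after seeing the data. Unless stated, the cause was not tested.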
